A study of Mus musculus with 7 samples.

Results

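Retnlg-high transitional neutrophils are mouse neutrophils whose UMIs (unique molecular identifiers, the barcodes that mark single RNA molecules) hold much Retnlg and little Camp and Ngp. They were chosen by a rule on each cell's own counts in the 6 healthy libraries. A neutrophil was a cell with at least 3% of its UMIs from S100a8 and S100a9 and fewer than 3 UMIs of the lymphocyte genes Cd79a, Cd79b, Cd3e and Nkg7. A cell of the state had at least 4% of its UMIs from Retnlg and under 1% from Camp and Ngp together. This gave 2076 cells of the state among 12620 neutrophils (16.5%), from 16907 cells in all. Retnlg, Camp and Ngp therefore chose the cells, and their values below are descriptions of the choice. The choice touches every gene of these cells, so the state against the other neutrophils is described without a test. Tests are given for tissues compared within the state.

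The study sorted live CD11b+ Ly6G+ cells from bone marrow, spleen and blood of healthy, untreated male C57BL/6J mice and sequenced them by droplet single-cell RNA-seq in 2 runs. The mice were 6 weeks old in run 1 and 8 weeks old in run 2, so run and age cannot be told apart. Each library pooled 3 mice, the same mice gave all 3 tissues within a run, and each tissue had 1 library per run. A fitted difference between tissues therefore rests on 2 libraries per tissue.

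Neutrophils mature in the bone marrow, and they load their granules in an order. Azurophil granule proteins such as myeloperoxidase are made first, specific granule proteins such as lactoferrin (Ltf), cathelicidin (Camp) and neutrophilic granule protein (Ngp) next, and gelatinase granule proteins such as Mmp9 last. Cells that leave for the blood have largely stopped making granule proteins and express receptors and cytokines of the mature cell, such as the G-CSF receptor (Csf3r) and interleukin-1 beta (Il1b). Retnlg encodes resistin-like gamma, a small secreted protein of myeloid cells. Mmp8 encodes neutrophil collagenase, a specific granule protein, and stood in the list of gelatinase granule and metalloproteinase genes here.

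The thresholds of the rule divide neutrophils into 4 classes. Cells with at least 1% Camp and Ngp fell into 2469 cells with Retnlg under 4% and 976 cells with Retnlg of 4% or more. The remaining 7099 cells had little Camp and Ngp and Retnlg under 4%, and are called mature cells here. The state makes up the rest. The name holds less well for bone marrow of run 1. Its 88 mature cells held 1898 CPM of the azurophil granule list, against 266 to 387 in mature cells of the other 5 libraries and 498 in the state of that library. Of these azurophil UMIs, 83.6% lay in 5 cells. The mitochondrial list summed to 3018 CPM in them and to 716 in the state.

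Both marker genes are shown with the 250 bases before their RefSeq start on build GRCm38.p6. Retnlg defines the state, and Mmp8 is the second marker of its label. Retnlg lies at chr16:48872608-48874498 and the window printed at chr16:48872358-48872607. Mmp8 lies at chr9:7558429-7568486 and its window at chr9:7558179-7558428. Both genes are read from the plus strand. Capitals mark the letters TTGCNNAA on either strand, a core of the sites that C/EBP transcription factors are known to bind.
Retnlg: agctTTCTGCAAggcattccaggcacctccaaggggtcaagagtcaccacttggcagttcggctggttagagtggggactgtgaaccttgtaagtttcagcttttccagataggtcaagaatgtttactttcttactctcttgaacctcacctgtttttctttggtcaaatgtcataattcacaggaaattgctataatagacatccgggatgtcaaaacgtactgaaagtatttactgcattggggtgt
Mmp8: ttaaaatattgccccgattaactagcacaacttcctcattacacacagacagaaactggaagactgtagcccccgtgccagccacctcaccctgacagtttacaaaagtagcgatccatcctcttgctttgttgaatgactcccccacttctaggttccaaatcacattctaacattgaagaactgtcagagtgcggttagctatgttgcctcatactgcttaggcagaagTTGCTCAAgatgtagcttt
The match begins 246 bases before the Retnlg start, on the opposite strand, and 19 bases before the Mmp8 start. Such letters occurred in 2582 of 27025 RefSeq windows of this length (9.55%) and in 91 of the 782 windows matched to genes of at least 100 CPM here (11.6%). A match is a description of these letters only.

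Cells of the state made up 23.5% of the neutrophils in bone marrow of run 1 (280 of 1194 cells, exact 95% binomial interval 21.1% to 26.0%) and 37.7% in run 2 (1276 of 3386, 36.0% to 39.3%). In spleen the shares were 7.15% (81 of 1133, 5.72% to 8.81%) and 5.73% (112 of 1955, 4.74% to 6.85%). In blood they were 6.67% (87 of 1305, 5.37% to 8.16%) and 6.58% (240 of 3647, 5.80% to 7.43%). Both bone marrow libraries thus lay above all 4 others, and spleen and blood overlapped. The intervals cover counting error only. Bone marrow had a mean of 30.6% ± 10.1, spleen of 6.44% ± 1.00 and blood of 6.62% ± 0.0608 (SD over 2 libraries, n = 2). An exact permutation test of the variance between tissue means over the 6 libraries gave p = 0.2, where the smallest p that its 90 arrangements allow is 0.0667. That smallest value was reached with each cell thinned to 500 UMIs before the rule was applied and with Camp and Ngp under 0.5%, and Retnlg of at least 3% or 5% gave 0.133.

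The spleen library of run 1 stood apart from that of run 2, with 46.3% of its neutrophils at or above 1% Camp and Ngp against 3.48%. Among neutrophils with under 1% Camp and Ngp, the state made up 76.1% (run 1) and 81.6% (run 2) in bone marrow. Spleen reached 13.3% and 5.94% by this measure, and blood 7.60% and 6.66%. Its means were 78.9% ± 3.93 for bone marrow, 9.63% ± 5.22 for spleen and 7.13% ± 0.664 for blood (SD over 2 libraries, n = 2). This measure was chosen after seeing the data. A cell of the state had a median of 1778.5 and 1563 UMIs in the marrow, 1224 and 916 for spleen and 1052 and 992 for blood, each above the median of the mature cells of its library (755 to 1532).

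**Figure D1:**
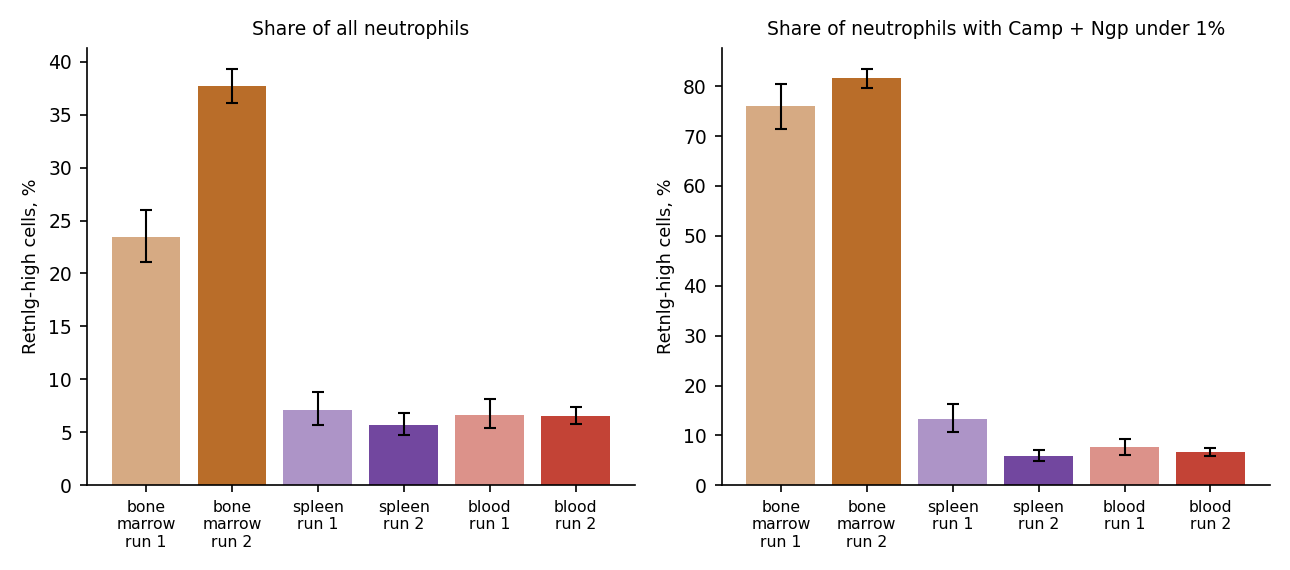
Retnlg-high cells as a percentage of all neutrophils (left) and of neutrophils with under 1% Camp and Ngp (right) in each of the 6 libraries, with exact 95% binomial intervals. Both bone marrow bars stand above the 4 bars of spleen and blood, at 23.5% and 37.7% on the left and at 76.1% and 81.6% on the right.

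Bone marrow cells of the state lay further above the Retnlg limit of the rule than those of spleen and blood, but not further below its Camp and Ngp limit. Their median Retnlg share was 6.48% and 6.49%, that of spleen cells 5.65% and 5.35%, and that of blood cells 5.39% and 5.03%. The highest single cell reached 14.2%, in bone marrow of run 2. Camp and Ngp had a median share of 0.367% (run 1) and 0.338% (run 2) in bone marrow and 0.345% in spleen of run 1. It was 0% in spleen of run 2, 0.0742% in blood of run 1 and 0% in blood of run 2. Only 0.714% and 2.35% of bone marrow cells of the state had no Camp or Ngp UMI, against 44.8% and 81.3% in blood. In spleen the share without these UMIs was 3.70% in run 1 and 75.9% in run 2.

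Free RNA and mixed droplets can give Camp and Ngp UMIs to cells that do not express these genes. Cells with at least 3 lymphocyte UMIs, which should lack both genes, carried 5.13% and 2.26% Camp and Ngp in bone marrow (26 and 331 cells, median depth 12988 and 1627 UMIs), 0.607% and 0.0136% in spleen (29 and 1623 cells, median depth 2262 and 1523) and 0.0382% and 0.00674% in blood (43 and 106 cells, median depth 1962 and 1714). The state's own sums held 0.425% and 0.402% in bone marrow. The spleen sums of the state held 0.424% and 0.122%, and those of blood 0.159% and 0.0799%. The rule keeps every cell of the state under 1%, which caps these sums, and the part of free RNA in them was not tested. The lymphocyte cells also held neutrophil RNA, with 74929 and 40854 CPM of S100a8 in bone marrow. In spleen they held 28076 and 3062 CPM of S100a8, and in blood 4345 and 17479. They are thus no clean measure of free RNA. For Retnlg, the same lymphocyte cells held 0.0552% to 0.320% Retnlg against 5.71% to 6.70% in the state.

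Mmp8 was not used by the rule. It came with the label as its second marker, chosen with earlier results of these data known, so it is no independent check. Levels are given in CPM, the summed counts of a class scaled to a common total over all genes. Bone marrow cells of the state had 2599.9 and 2699.5 CPM of Mmp8, spleen cells 2128 and 1387, and blood cells 1728 and 1064. In the mature cells of the same libraries it was 1276 and 1520, 479 and 330, and 413 and 346. The state was above the mature cells in 6 of 6 libraries, by 0.83 to 2.14 on the log2 scale. Camp/Ngp-high cells with high Retnlg held more, 2894 to 3867 CPM, and the Retnlg-low cells with high Camp and Ngp held 1288 to 2046. Thinned to 500 UMIs, 65.4% and 66.0% of the state's cells from bone marrow had an Mmp8 UMI. From spleen these were 54.3% and 33.0%, and from blood 55.2% and 29.6%. Lymphocyte cells of the same libraries had such a UMI in 0% to 11.5% of cells.

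Genes of the mature neutrophil were higher in the state than in granule-rich cells, and most were lower than in mature cells. Of 28 measured genes in the list of mature genes, 28 were higher than in Camp/Ngp-high cells in all 6 libraries and 22 were lower than in mature cells. Among all 1031 genes of at least 100 CPM, 517 and 453 did so. The G-CSF receptor gene Csf3r had 370.1 and 437 CPM in bone marrow cells of the state, 771 and 1122 in spleen and 1044 and 1244 in blood. In mature cells it had 674 and 847, 1662 and 1756, and 2019 and 1736 CPM. The chemokine receptor gene Cxcr2 had 490.4 to 1199 CPM in the state over the 6 libraries and 699 to 1375 in mature cells. The interleukin gene Il1b had 125 and 538 CPM in bone marrow by run, against 876 and 2389 for spleen and 1168 and 2644 for blood, and 479 to 3972 in mature cells.

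Specific granule genes ran the other way. Of 13 measured, 11 were lower in the state than in Camp/Ngp-high cells and 9 were higher than in mature cells in all 6 libraries. Among all 1031 genes, 134 and 77 did so. The iron-binding protein gene Lcn2 had 2989 and 3563 CPM in bone marrow cells of the state, 2697 and 2526 in spleen and 1955 and 2065 in blood. Its level was 5716 to 11089 CPM in both Camp/Ngp-high classes and 678 to 2206 in mature cells. Lactoferrin (Ltf) was far lower in the state. It had 208 and 289 CPM in bone marrow by run, against 263 and 51.4 for spleen and 94.9 and 37.4 for blood. Its level was 7056 to 10126 CPM in Retnlg-low cells with high Camp and Ngp. Of the gelatinase granule genes, Mmp9 had 1387 to 1898 CPM in the state and 1043 to 1540.0 in mature cells, and was higher in the state in 6 of 6 libraries by 0.08 to 0.41 on the log2 scale.

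Of the 1031 genes, 284 (27.5%) had a level in the state between that of the Camp/Ngp-high Retnlg-low cells and that of the mature cells in 6 of 6 libraries. Only 7 genes (0.679%) were highest in the state among the 4 classes in 6 of 6 libraries. Prr13, a proline-rich protein gene, was the most abundant of these apart from S100a6, with 2080.4 to 3104 CPM in the state against 1545 to 2267 in mature cells and 735 to 1068 in Retnlg-low cells with high Camp and Ngp. The calcium-binding protein gene S100a6 had 7149 to 11704 CPM in the state and 5967 to 8672 in mature cells. The others were the retinol dehydrogenase gene Rdh12 (123 to 247 CPM), the Ly49 receptor gene Klra2 (111 to 189.8), R3hdm4 (702 to 911), Ccdc180 (146 to 304) and Retnlb. Retnlb is a close relative of Retnlg, and it had 861 to 1329 CPM in the 3 libraries of run 1 and 8.56 to 37.4 in those of run 2. Counting could split reads between the pair, so its value is uncertain.

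**Figure D2:**
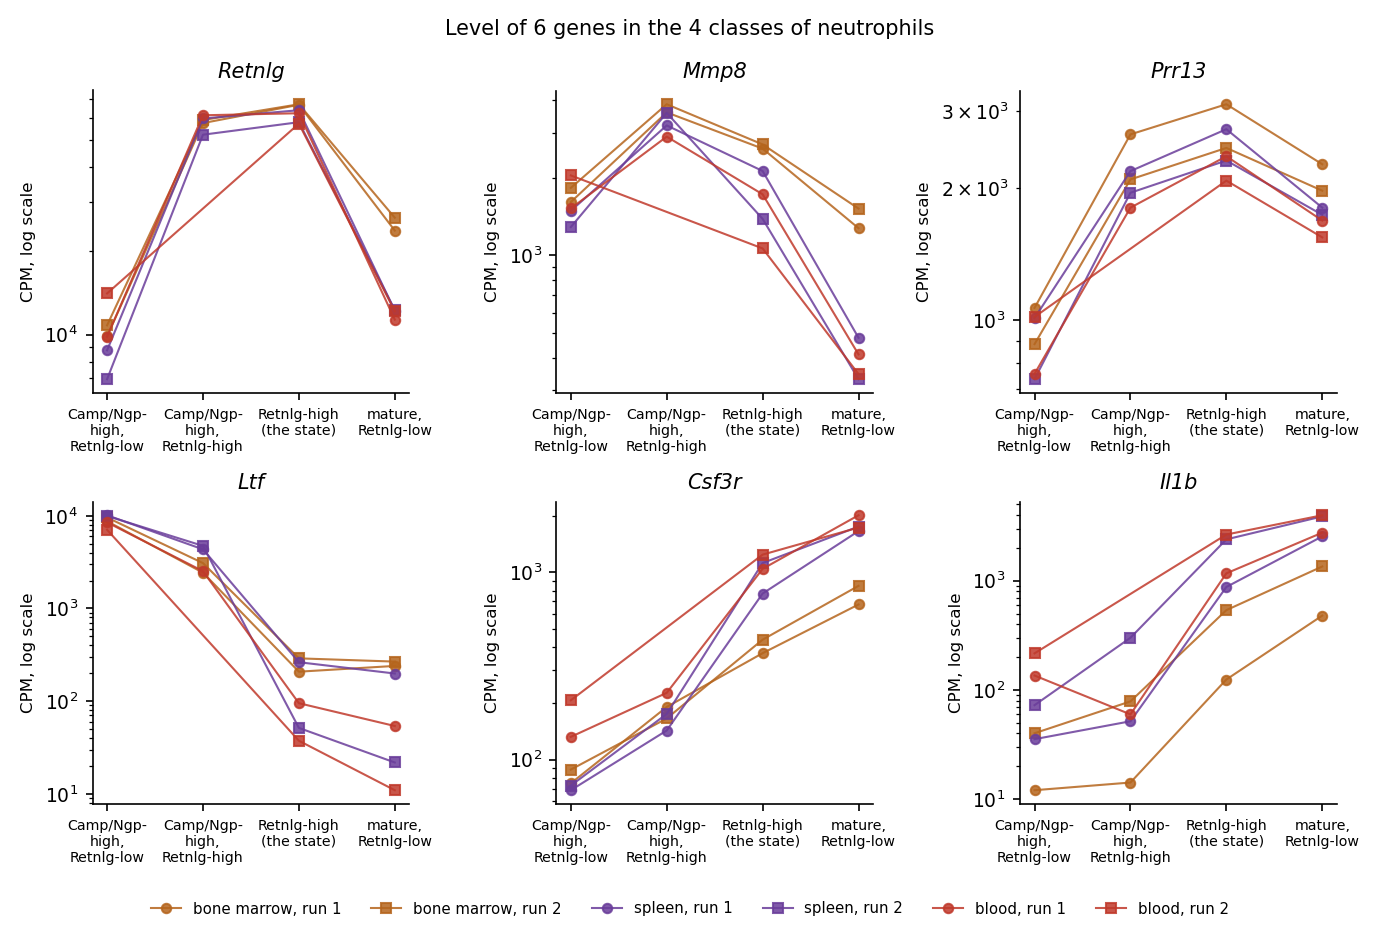
CPM (log scale) of 6 genes in the 4 classes of neutrophils, with 1 line per library (circles run 1, squares run 2; a class of under 10 cells, in blood of run 2, is not drawn). Prr13 is highest in the state in all 6 libraries, Retnlg (which chose the classes) in 5, Ltf is far lower in the 2 classes with little Camp and Ngp, and Csf3r and Il1b are highest in mature cells.

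Against all other neutrophils of the library, few genes differed by much in all 6. Over 2-fold higher in 6 of 6 libraries were 2 of 1031 genes (0.194%), and over 2-fold lower 6 (0.582%), which the choice of cells partly fixes. Against mature cells alone, 1 gene was over 2-fold higher (0.097%) and 5 lower (0.485%). Against Camp/Ngp-high cells alone, 146 were higher (14.2%) and 22 lower (2.13%). The secreted prokineticin gene Prok2 was the highest by its lowest ratio. It had 109.5 and 208 CPM in bone marrow cells of the state, 166 and 85.6 in spleen and 57.0 and 85.9 in blood, a log2 ratio of 1.40 to 2.57. It was higher still in Retnlg-high cells with high Camp and Ngp in 4 of 6 libraries. BC100530, a stefin-like cysteine protease inhibitor gene, had 154 to 275 CPM and a log2 ratio of 1.34 to 3.56. Rfc2 (log2 ratio 0.81 to 1.33) and Rdh12 (0.76 to 1.71) came next. The formyl peptide receptor gene Fpr1 had 231 to 438 CPM (log2 ratio 0.65 to 1.82), followed by the metalloproteinase inhibitor gene Timp2 with 236 to 338 CPM (0.63 to 1.53) and the vesicle fusion gene Stx11 with 197 to 315 CPM (0.55 to 1.48). Klra2, Hiat1, Myl2, Max and Nampt complete the 12, with lowest log2 ratios of 0.45 to 0.52.

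At the other end stood granule genes, tubulin and ribosomal protein genes. Ltf (log2 ratio -5.17 to -2.89), the chitinase-like gene Chil3 (-5.46 to -2.47), the tubulin gene Tuba1b (-5.16 to -1.81), the granulocyte transcription factor gene Cebpe (-3.07 to -1.51) and the leukotriene hydrolase gene Lta4h (-5.38 to -1.21) led. Tuba1b in both blood libraries and Lta4h in spleen of run 2 had 0 CPM in the state, and their ratios there depend on the prior count of 1. The ribosomal protein genes Rpl36, Rps28, Rps26 and Rpl32 were among the 12 lowest. Over the whole list, 50 of 60 measured ribosomal protein genes were lower in the state than in mature cells in all 6 libraries, against 453 of 1031 genes. Their summed level in the state was 10889 to 14742 CPM in run 1 and 24068 to 39938 in run 2, and the runs did not overlap. In mature cells the sums were 23067 to 34356 and 42209 to 60744 CPM.

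The genes whose levels followed Retnlg most closely over the 23 class sums of at least 10 cells were Prr13 (Spearman's rho 0.89), Shfm1 (0.87), Fpr1 (0.87), R3hdm4 (0.85) and Max (0.81). The sums share libraries and were sorted by Retnlg itself, so these values are descriptions with no p.

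Within the state, cells with more Retnlg had more Mmp8 and less Csf3r in spleen and blood. Ngp, a gene of the rule, and Lcn2 rose along the same bins in these libraries. In blood of run 2, Ngp had 202, 1001 and 3050 CPM and Lcn2 1704, 2489 and 3800. The bins thus also sort these cells by granule RNA. In blood of run 2, Mmp8 had 737 CPM in the 172 cells with 4% to 6% Retnlg, 1473 in the 54 cells with 6% to 8% and 2550.1 in the 14 cells with 8% or more. In spleen of run 1 the series was 1609, 2209 and 3233 CPM (43, 24 and 14 cells). Bone marrow showed little of this, with 2635, 2489.5 and 2777 CPM in run 1 and 2503, 2786 and 2869.6 in run 2. Il1b had 1704, 625 and 207 CPM along the bins in blood of run 1, and 2879, 2174 and 2200.1 CPM in blood of run 2. Csf3r was 1428, 901 and 800.0 CPM along the same bins in blood of run 2, and 386, 362 and 357 in bone marrow of run 1. The highest bin of the 4 libraries of spleen and blood holds only 8 to 14 cells. Just outside the rule, at 3.5% to 4% Retnlg, Mmp8 had 2777 and 2248 CPM in bone marrow by run, against 1238 and 696 for spleen and 1067 and 815 for blood. Just inside, at 4% to 4.5%, it had 2721 and 2327, 1440.0 and 723, and 1136 and 490.2.

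**Figure D3:**
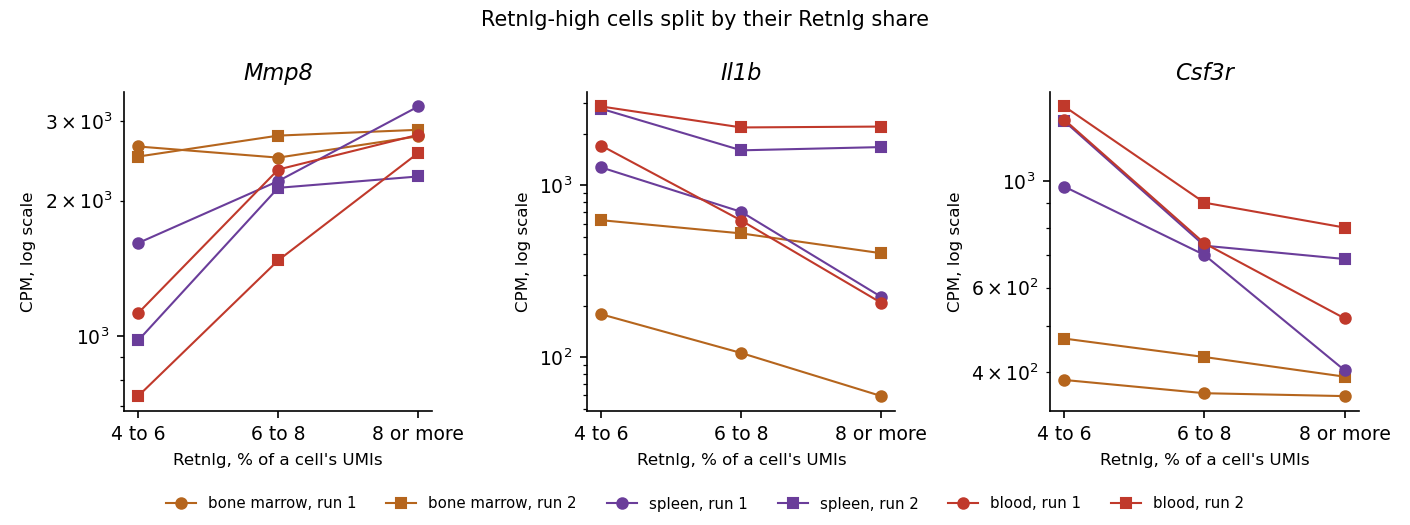
CPM (log scale) of Mmp8, Il1b and Csf3r in Retnlg-high cells split by the share of Retnlg in their UMIs, with 1 line per library. Mmp8 rises with Retnlg in spleen and blood (737 to 2550.1 CPM in blood of run 2) and stays between 2489.5 and 2869.6 in bone marrow, and Csf3r falls. Ngp and Lcn2, not drawn, also rise along the bins in spleen and blood.

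The first tested question was whether cells of the same rule differ between bone marrow and blood. Counts were summed over the cells of the state in each library and compared with edgeR's quasi-likelihood test with run as a block. Higher in bone marrow were 7 of 13 genes of the specific granule list and Mmp8. Of these, Chil3 and Ltf are not read as a difference in expression, for the reason given below. Lower were 11 of 30 genes of the mature neutrophil and 4 of 11 immediate early genes, with Dusp1 and Junb in both counts. Of 1878 genes tested outside the rule, 34 were higher in bone marrow (1.81%) and 67 lower (3.57%), 5.38% in all. Of these 101 genes, 100 moved in the same direction in both runs and 91 had no overlap between the libraries, against 65.8% and 46.3% of all genes tested. The same libraries chose these genes, so this describes the calls and is no separate support. Values in this and the following comparisons are CPM of the 6691 genes listed in every file. Without run as a block no gene passed. That fit gave 169 genes at an unadjusted p under 0.05, against 384 with the block.

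Specific granule genes were higher in bone marrow in 7 of 13 tested, and none was lower. Lysozyme (Lyz2) had 18329 and 10089 CPM in bone marrow of runs 1 and 2, 12968 and 4858 in spleen, and 10349 and 5062 in blood. Bone marrow was above blood in each run, and run 1 was above run 2 in each tissue. The log2 difference of bone marrow from blood was 1.13 ± 0.18 (SE, adjusted p = 0.0056). The interferon-inducible membrane protein gene Ifitm6 had 1698 and 3043 CPM in bone marrow and 1085 and 898 in blood (log2 1.46 ± 0.26, adjusted p = 0.00916). Lcn2 had 2999.5 and 3594 CPM in bone marrow and 1961 and 2087 in blood (log2 0.91 ± 0.17, adjusted p = 0.012). Wfdc21, Chil3, Cd177 and Ltf were the other 4, with log2 differences of 0.90, 2.77, 1.48 and 2.40. Chil3 and Ltf rest on 19.0 to 95.2 CPM in blood. Granule RNA in lymphocyte cells, which should lack it, was also higher in bone marrow. These cells held 8275 and 2537 CPM of Lyz2 in bone marrow and 351 and 241 in blood. For Lcn2 they held 2582 and 1238 CPM in bone marrow and 53.1 and 125 in blood. The state was above them in every library for Lyz2, Lcn2, Ifitm6, Wfdc21, Cd177 and Mmp8. Chil3 (3236 and 1643 CPM in lymphocyte cells of bone marrow) and Ltf (2591 and 1350) were below them in the state in both bone marrow libraries. The rule caps Camp and Ngp in the state but not in those cells, which also held neutrophil RNA. This order therefore cannot tell free RNA from expression. The calls of Chil3 and Ltf are not read as a difference in expression. The part of free RNA in the other calls was not tested.

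Mmp8, the label's second marker, was higher in bone marrow as well. It had 2609 and 2723 CPM in bone marrow by run, against 2132 and 1405 for spleen and 1733 and 1076 for blood. Both bone marrow libraries were above the other 4, and spleen overlapped blood. The log2 difference of bone marrow from blood was 1.199 ± 0.21 (adjusted p = 0.00916). It was 1.76 ± 0.21 among cells with 4% to under 6% Retnlg, a comparison added after seeing the data to match the tissues for Retnlg. In that comparison 84 of the 94 genes still tested passed in the same direction. No other gene tested of the list that held Mmp8 passed.

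Other genes higher in bone marrow belonged to several groups. Cebpe, which encodes the transcription factor of specific granule genes, had 112 and 74.7 CPM against 38.1 and 18.9 in blood (log2 2.00 ± 0.44, adjusted p = 0.0238). The surface protein gene Ly6g, whose product was used in the sort, had 919 and 753 CPM against 676 and 359 (log2 0.98 ± 0.21, adjusted p = 0.0208). The actin-capping gene Capg (log2 1.40), the oxidase subunit gene Ncf1 (0.85), the galectin gene Lgals3 (0.93), the ADP-dependent glucokinase gene Adpgk (1.56), Gpr27 (2.70), Cd24a (0.88), Arhgdib (0.91), S100a13 (1.05) and Max (0.76) passed as well. The monocyte gene Ly6c2 was higher too, at 1141 and 788 CPM against 724 and 313 (log2 1.22). The other 11 genes of the monocyte and macrophage list summed to 77.4 and 58.9 CPM in bone marrow and 123 and 78.4 in blood. Their sum was thus not higher in bone marrow, but Csf1r gave 10 of 13 and 15 of 21 UMIs of it in blood. C1qa (5 and 13 UMIs in bone marrow) and C1qb (1 and 11) had 0 in blood, which held far fewer UMIs in all. The part of monocyte or macrophage RNA in the Ly6c2 call was not tested.

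Genes of the mature neutrophil were lower in bone marrow in 11 of 30 tested, and none was higher. Il1b had 125 and 542 CPM in bone marrow by run, against 877 and 2420 for spleen and 1171 and 2673 for blood. Bone marrow was lowest in each run, and the runs differed by more than 2-fold in every tissue. The log2 difference of bone marrow from blood was -2.47 ± 0.24 (adjusted p = 0.000585). Csf3r had 371 and 441 CPM in bone marrow by run, against 772 and 1136 for spleen and 1047 and 1257 for blood (log2 -1.29 ± 0.18, adjusted p = 0.00406). The whey acidic protein gene Wfdc17 had 225 and 613 CPM against 933 and 4111 in blood (log2 -2.20 ± 0.28, adjusted p = 0.00329). The lipopolysaccharide co-receptor gene Cd14 had 5.68 and 16.3 CPM against 38.1 and 136 (log2 -2.80 ± 0.37, adjusted p = 0.00398). Malat1, Ifitm1, Srgn, Klf2, Jund, Junb and Dusp1 were the others of the list.

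Immediate early genes, which respond fast to stimulation and to handling of cells, were lower in bone marrow in 4 of 11 tested. The phosphatase gene Dusp1 had 133 and 422 CPM in bone marrow by run, against 359.7 and 1475 for spleen and 628 and 1589 for blood (log2 -1.84 ± 0.20, adjusted p = 0.00127). The transcription factor gene Junb fell by 1.44 on the log2 scale, Fos by 1.48, and Ier5 by 1.43. The suppressor of cytokine signalling Socs3 (log2 -1.99) and Tnfaip2 (-1.38) of the inflammatory list were lower, the antiviral gene Oasl2 (-1.54) was the only call among 17 interferon genes, and H2-K1 (-0.89) and H2-Q10 (-1.01) were lower among 11 MHC class I genes. Ctla2a, which encodes a cathepsin inhibitor, had 0 and 1.44 CPM in bone marrow (0 and 3 UMIs) against 114 and 125 in blood. Gm26532 (-2.90), Adgre5 (-1.95), Pla2g7 (-1.33) and Marcks (-1.44) followed.

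**Figure D4:**
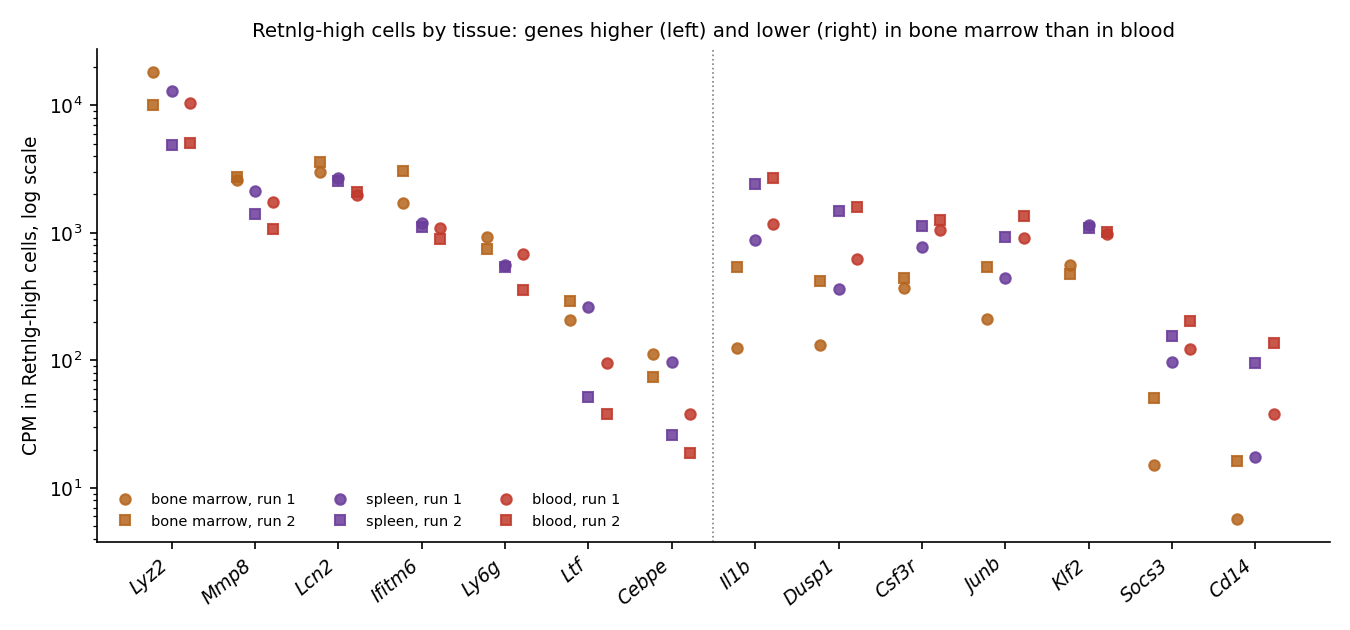
CPM (log scale) in Retnlg-high cells of 7 genes higher and 7 genes lower in bone marrow than in blood, for the 6 libraries (circles run 1, squares run 2). Spleen lies near blood for Il1b (877 and 2420 CPM against 1171 and 2673) and Csf3r, and between the tissues for Mmp8.

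Red cell RNA differed between these libraries. The 10 genes of the erythroid list summed to 487 and 214 CPM in cells of the state in bone marrow, 166 and 873 in spleen, 513 in blood of run 1 and 16139 in blood of run 2, where every cell of the state had such a UMI. Hbb-bt and Hba-a2 were called lower in bone marrow (log2 -4.22 and -4.36), and these calls rest on blood of run 2. Hba-a2 turned to 0.26 without that library, and to 0.59 without bone marrow of run 2. B cell genes summed to at most 805 CPM (spleen of run 2), and T and NK cell genes to at most 248. Among B cell genes 10, 2, 10, 2, 10 and 7 of 12 were at 0 in bone marrow, spleen and blood by run. Files of run 1 list only genes with at least 11 UMIs, so a gene at 0 there may be one that the file does not list. T and NK cell genes were at 0 in 14, 9, 14, 8, 11 and 13 of 15. Without cells of at least 10% red cell UMIs or 5 MHC class II UMIs, 100 of the 101 calls remained. The bone marrow library of run 2 supplied 1276 of the 2076 cells, and every call higher in bone marrow than in blood depended on it. Without it, 5 genes passed between bone marrow and blood, and 53 without blood of run 2. Without a spleen library, 181 (run 1) and 175 (run 2) passed, and 76 and 68 without bone marrow or blood of run 1. DESeq2 called 43 genes.

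Between spleen and blood no difference within the state passed the test. No gene of 1878 passed in either direction with edgeR (0%), with 90 genes at an unadjusted p under 0.05, and DESeq2 called none. Mmp8 differed by 0.38 ± 0.22 on the log2 scale (spleen minus blood), Il1b by -0.25 ± 0.23, Csf3r by -0.26 ± 0.18 and Lyz2 by 0.18 ± 0.18 (SE). A p that misses the threshold does not show that the tissues are alike. Leaving out 1 library at a time gave 4 to 9 genes, and Retnlg of at least 3% gave 11. With 81 and 112 cells in spleen and 87 and 240 in blood, these libraries held 105349 to 267735 UMIs of the state, against 529643 and 2105577 in bone marrow.

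Spleen against bone marrow shares its bone marrow libraries with the comparison of bone marrow and blood, and called fewer genes. Higher in spleen were 15 genes (0.799%) and lower 3 (0.16%). Of these 18 genes (0.958%), 17 moved in the same direction in both runs, against 57.1% of all genes tested. This too describes the calls only, since the same libraries chose them. Il1b was higher by 2.22 ± 0.24 on the log2 scale (adjusted p = 0.00345), Dusp1 by 1.46 ± 0.20 (adjusted p = 0.00783) and Csf3r by 1.03 ± 0.18 (adjusted p = 0.0222). Klf2, which encodes a transcription factor of quiescent leukocytes, had 1158 and 1084 CPM in spleen against 561 and 471 in bone marrow (log2 0.94). The interferon-stimulated gene Isg15 had 369 and 347 CPM against 146 and 133 (log2 1.18). Tagln2, Cd244, Pla2g7, Adgre5, Fgl2, Rnf149, Marcks and Wfdc17 were among the rest. Lyz2 (log2 -0.95), Ly6c2 (-1.23) and Emp3 (-1.14) were lower. Mmp8 had a log2 difference of -0.82 ± 0.21 and did not pass (adjusted p = 0.126). Cd74, an MHC class II chaperone of B cells and macrophages, had 8.77 CPM in spleen of run 1 and 442 in run 2, where 35.9% of mature cells also had a Cd74 UMI. Its log2 difference of 2.44 turned to -0.36 without spleen of run 2. Without bone marrow of run 2, 2 genes passed, and 8 without spleen of run 2. Without spleen of run 1, 54 passed, 57 and 32 without blood of run 2 and run 1, and 30 without bone marrow of run 1. Without run as a block none did.

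The last question was whether these tissue differences were of the same size in the state as in mature cells. The interaction of class and tissue was fitted over 4142 genes with each library as a block. For bone marrow against blood, no gene had a higher, and 18 (0.435%) had a lower log2 difference in the state than in mature cells. For spleen against bone marrow, 19 genes (0.459%) had a higher and none a lower one. For spleen against blood none passed, with 127 genes at an unadjusted p under 0.05, and DESeq2 called none.

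For bone marrow against blood, 2 of 13 specific granule genes (Lyz2 and Ifitm6) and Mmp8 had a smaller difference in the state than in mature cells. For spleen against bone marrow these were 3 of 13 and Mmp8. Other lists moved the same way. For bone marrow against blood, 68 of 75 ribosomal protein genes (3 called) and 9 of 9 mitochondrial genes (1 called) had a negative interaction. Among all 4142 genes 2041 did. For spleen against bone marrow, 69 of 75 and 9 of 9 had a positive interaction, against 1929 of 4142. Mmp8 had 1288 and 1541 CPM in mature cells of bone marrow against 415 and 351 in those of blood, a log2 difference of 2.09, against 1.199 in the state. The interaction was -0.87 ± 0.20 (adjusted p = 0.022). Lyz2 had 12239.9 and 7397 CPM in mature cells of bone marrow and 3752 and 1929.5 in blood, with an interaction of -0.87 ± 0.16 (adjusted p = 0.000793). Ly6g had 523 and 407 CPM against 86.4 and 104 (interaction -1.39 ± 0.28, adjusted p = 0.0036). The interaction was -0.91 for Ifitm6 and -2.39 for Adpgk, and neither Adpgk nor Ly6g is in a granule list. Without bone marrow of run 1, whose mature class held azurophil RNA, Mmp8 stood at -0.96 and Lyz2 at -0.94 and both passed, and Ifitm6 stood at -0.76 and did not (adjusted p = 0.41). In bone marrow the mature cells also held more Retnlg, 23612 and 26261 CPM against 11319.9 to 12256 in spleen and blood, and so lay nearer to the limit of the rule. With Retnlg of at least 3% as the limit, the Mmp8 interaction of bone marrow against blood was 0.0050, and with Retnlg of 4% to under 6% in the state it was -0.33, so it depends on where the classes are divided. For spleen against bone marrow, Mmp8, Lyz2, Ifitm6 and Adpgk passed as well, and Ly6g did not (interaction 1.08 ± 0.29, adjusted p = 0.0783). Ifitm6 turned from 0.98 to -0.049 with Retnlg of at least 3% as the limit. Prok2 (interaction 3.17 ± 0.58, adjusted p = 0.000969) and the stefin gene Stfa1 (2.12 ± 0.33, adjusted p = 8.3e-05) passed in that comparison. Stfa1 had 676 and 512 CPM in the state in spleen against 144 and 157 in mature cells there, and 307 and 267 against 543 and 201 in bone marrow.

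Genes of red cells and of MHC class II cells were also among those with large interactions, beside Crip1 (-3.47, bone marrow against blood) and Prok2. Hbb-bs had 4675 and 1340 CPM in mature cells of bone marrow against 296 and 101 in the state, an interaction of -3.06 ± 0.30 against blood. Of the red cell UMIs in mature bone marrow cells, 96.1% and 93.7% lay in 5 cells of each library, and of the Cd74 UMIs 100% and 94.4%. Leaving out cells with at least 10% red cell UMIs or at least 5 UMIs of Cd74, H2-Aa and H2-Ab1 removed 2 of 88 and 4 of 287 mature cells in bone marrow, a step added after seeing the data. After it 10 genes passed between bone marrow and blood and 15 between spleen and bone marrow, and Mmp8 stood at -0.89 and 1.19. The tests within the state moved little, with 109 and 18 genes. Without blood of run 2, 5 genes passed the interaction of bone marrow against blood, and 40 without bone marrow of run 2. For spleen against bone marrow 45 passed without bone marrow of run 2, 12 without spleen of run 1 and 11 without spleen of run 2. For spleen against blood 1, 3 and 2 passed without blood of run 2, spleen of run 1 and spleen of run 2. With run in place of library as the block, 1 gene passed for bone marrow against blood and 4 for spleen against bone marrow, and DESeq2 called 5 in each.

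**Figure D5:**
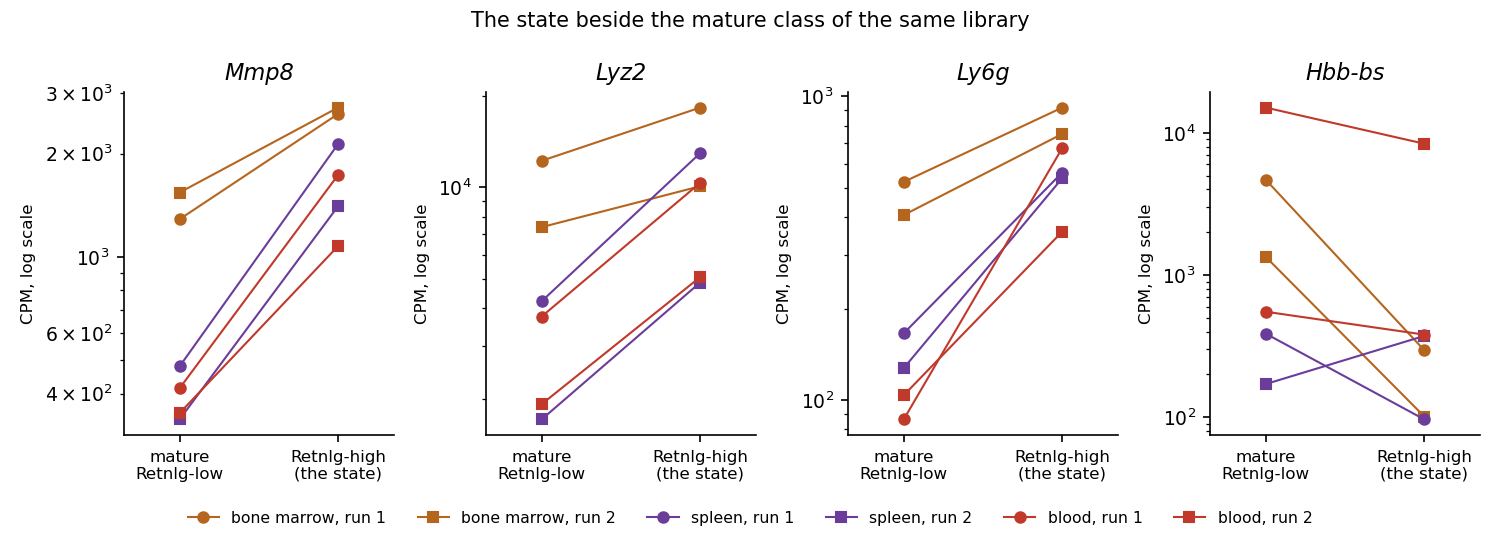
CPM (log scale) of Mmp8, Lyz2, Ly6g and Hbb-bs in mature cells (left of each panel) and Retnlg-high cells (right) of the same library, joined by a line. For Mmp8 the 6 libraries span 337 to 1541 CPM in mature cells and 1076 to 2723 in the state. That the tissues lie closer together in the state depends on where the classes are divided. With Retnlg of at least 3% as the limit, the Mmp8 interaction of bone marrow against blood was 0.0050.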

How the data were processed

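Sorted CD11b+ Ly6G+ cells were measured by 10X droplet RNA-seq in 3 tissues and 2 runs. The deposited files hold UMI counts per gene and cell, made by the authors with Cell Ranger on mm10, in a different version for each run. They are raw counts, 1968514 to 10106307 UMIs per library over 1219 to 4653 cells. Files of run 1 list only genes with at least 11 UMIs, so tests used the 6691 genes listed in all 6 files, and a gene missing from 1 file was not tested.

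Cells were classed by the rule, and counts were summed per library and class. Sums were tested with edgeR 4.0.16 in R 4.3.3 (glmQLFit and glmQLFTest, TMM, filterByExpr by tissue, Benjamini-Hochberg adjusted p under 0.05), with run as a block, or with library as a block for the interaction. Within a run all tissues were taken from the same mice, and same-run sums deviated together (r = 0.729, 0.626 and 0.722 over 1883 genes). The rule's 9 genes stayed in the fits and are not counted. Log2 ratios of a class used a prior count of 1. Shares have exact 95% binomial intervals, and intervals cover counting error only. No doublet caller was run. Libraries shared 0 to 36 cell barcodes per pair, and 1 barcode was shared among cells of the state.

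The state's members and the 23 gene lists were chosen with earlier results of these data known. Named genes were, per direction, the 10 called genes with the smallest p outside the rule and other-cell lists, called genes of a list, the 12 genes of at least 100 CPM with the most extreme log2 ratio in its weakest library, and the 5 genes most like Retnlg. Genes highest in the state in 6 of 6 libraries were named by count. On simulated data with the depths of the real sums, the test of bone marrow against blood found 64.4% of 2-fold and 92.9% of 4-fold changes with 6.85% false calls (1747 genes), and the interaction of the same tissues 18% and 71% with 1.11% false calls (3961 genes). Alternatives were DESeq2 1.42.0, other thresholds, filters, blocks and left-out libraries.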

Additional observations from a re-analysis of the deposited data

Results flagged for a closer look

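These genes were listed because their tissue difference differed between the Retnlg-high and the mature cells by the interaction test. Values are log2 differences, Retnlg-high relative to mature cells.

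For bone marrow against blood, the granule and surface genes had interactions of -0.87 (Mmp8), -0.87 (Lyz2), -0.91 (Ifitm6) and -1.39 (Ly6g), and Adpgk had -2.39. Red cell genes had -3.06 (Hbb-bs), -3.33 (Hbb-bt), -3.48 (Hba-a2) and -3.32 (Hba-a1). Genes of MHC class II cells and others had -3.09 (Cd74), -3.50 (H2-Ab1), -3.47 (Crip1) and -1.88 (Apoe). The mitochondrial gene mt-Nd1 had -2.10, and the ribosomal protein genes had -1.49 (Rpl4), -1.81 (Rpl14) and -1.35 (Rps19).

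For spleen against bone marrow, the granule and surface genes had interactions of 1.202 (Mmp8), 1.06 (Lyz2), 0.98 (Ifitm6), 1.505 (Cd177) and 1.16 (Ly6c2). Adpgk had 2.44, Prok2 3.17 and Stfa1 2.12. Red cell genes had 3.75 (Hbb-bs), 5.01 (Hba-a2), 4.14 (Hba-a1) and 3.96 (Hbb-bt). Cd74 had 3.14, H2-Aa 3.78, Apoe 1.82, Rps19 1.61 and Rpl3 1.81. Of the red cell UMIs of mature bone marrow cells, 96.1% and 93.7% lay in 5 cells of each library.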

How the results depend on the processing

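The bone marrow shares stayed above the others under every alternative tried. The difference between the bone marrow mean and the mean of spleen and blood was 15.9 to 31.5 percentage points, with 16.5 and 31.5 in the runs alone, and 70.5 as a share of neutrophils with little Camp and Ngp. The counts of called genes moved more. For bone marrow against blood (101 genes), 0 passed with no replicate block, 43 by DESeq2, 379 at Retnlg of at least 3% and 56 at 5%, and 5 to 181 with 1 library left out. For spleen against blood (0 genes), 10 passed with no filter on low counts, 11 at Retnlg of at least 3%, 1 at Retnlg of 4% to under 6%, and 4 to 9 with 1 library left out. For spleen against bone marrow (18 genes), 0 passed with no replicate block, 51 with no filter, 215 at Retnlg of at least 3%, 10 at 5%, 28 at Camp and Ngp under 0.5%, 68 at Retnlg of 4% to under 6%, and 2 to 57 with 1 library left out. Where a left-out library left a tissue with 1, that library was taken to vary like the others.

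For the interaction of bone marrow against blood (18 genes), 1 passed with run in place of library as the replicate block, 5 by DESeq2, 47 at Retnlg of at least 3%, 10 without mixed cells, and 5 to 40 with 1 library left out. For that of spleen against blood (0 genes), 1 passed at Retnlg of at least 5%, 1 at Camp and Ngp under 0.5%, 2 without mixed cells, and 0 to 3 with 1 library left out. For that of spleen against bone marrow (19 genes), 4 passed with run as the replicate block, 5 by DESeq2, 42 at Retnlg of at least 3%, and 11 to 45 with 1 library left out. Against Camp/Ngp-high cells alone, 168 genes differed over 2-fold in 6 of 6 libraries, in place of 8 against all other neutrophils.

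Directions that turned were those of Hba-a2 between bone marrow and blood (0.26 without blood of run 2, 0.59 without bone marrow of run 2, and as low as -5.97 without bone marrow of run 1), Cd74 between spleen and bone marrow (-0.36 without spleen of run 2, up to 2.62 without spleen of run 1), and the interactions of Mmp8 (0.0050, bone marrow against blood) and Ifitm6 (-0.049, spleen against bone marrow) at Retnlg of at least 3%, H2-Aa (-1.98 without spleen of run 2, up to 8.82 without bone marrow of run 2), H2-Ab1 (spleen against bone marrow, 2.84, at -1.62 without spleen of run 2 and -0.087 without mixed cells) and Rpl3 (-0.44 at Retnlg of at least 5%). The cause was not tested. Retnlg of 4% to under 6%, the step without mixed cells and the share of neutrophils with little Camp and Ngp were chosen after seeing the data. H2-Ab1 was named here after its values were seen. The state held 81 to 240 cells per library in spleen and blood, against 280 and 1276 in bone marrow.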
